A study of Mus musculus with 8 samples.

Results

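The genes described here are 10 members of the bone morphogenetic protein (BMP) pathway, read from RNA sequencing of whole fetal mouse hearts. They are the ligands *Bmp2*, *Bmp4*, *Bmp5* and *Bmp7*, the inhibitor of DNA binding (ID) genes *Id1*, *Id2*, *Id3* and *Id4*, and the inhibitory SMAD genes *Smad6* and *Smad7*. They were chosen by symbol and are 10 of the 26590 gene symbols and 14 of the 51414 transcript rows of the table. For a gene with more than 1 row, values are those of its most abundant row, and its other rows are given beside it.

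Hearts of 4 *Dio3+/+* and 4 *Dio3-/-* fetuses on a C57BL/6J background were compared, each heart from 1 mouse. *Dio3* encodes the type 3 deiodinase, the enzyme that inactivates thyroid hormones, and the *Dio3-/-* fetuses lack it in every tissue, not in the heart alone. The sample titles give embryonic day E13.5 for all 8 hearts, but the age field of *Dio3-/-* hearts 3 and 4 gives E18.5, and the Methods of the study give yet another age. The table gives only a mean and a coefficient of variation (CV, the SD divided by the mean) for each genotype, so no result could be given without these hearts and age cannot be told apart from genotype in them. Values are read as RPKM (reads corrected for the length of the transcript and the size of the library), although the table names no unit. RPKM allows levels to be compared between genes, so such comparisons rest on this reading. The depth of each heart is not in the table. *Dio3* itself was near the bottom of the scale in both genotypes, at 0.35 RPKM (CV 1.23) in *Dio3+/+* hearts and 0.13 RPKM (CV 0.76) in *Dio3-/-* hearts, so it could not check the labels.

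BMPs are secreted proteins of the TGF-β superfamily that bind pairs of type I and type II serine/threonine kinase receptors. The activated receptors phosphorylate SMAD1, SMAD5 and SMAD9, which enter the nucleus with SMAD4 and induce target genes. The ID genes are among the most direct of these targets, and their proteins hold back differentiation by capturing basic helix-loop-helix factors. *Smad6* and *Smad7* are induced by the same signal and switch it off at the receptor. In the fetal heart, BMPs from the myocardium act on the cushions that form valves and septa, and they help to set chamber growth.

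None of the 10 genes differed between genotypes with an adjusted *P* value under 0.05 (limma, Benjamini-Hochberg adjustment over all 32703 rows tested). The same test called 2.29% of the 14657 gene symbols tested by their highest row, 1.91% as higher and 0.382% as lower in *Dio3-/-* hearts. At an unadjusted *P* value under 0.05, 2 of the 10 (*Smad6* and *Smad7*) passed, against 19.7% of all symbols. An unequal-variance test from the same summaries called 0 of the 10 after adjustment, but it called only 69 of all 32703 rows tested. All 10 were above the limit of 1 RPKM for testing. Of their log2 differences (*Dio3-/-* minus *Dio3+/+*, on the log2(RPKM + 0.5) scale), 6 were above 0 and 4 were below, with a median of 0.03, and the median over all symbols tested was 0.04. The differences ran from -0.24 for *Bmp5* to 0.26 for *Smad6*. These are bulk values, in which fewer cells of a type and less RNA per cell cannot be told apart.

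**Figure D1:**
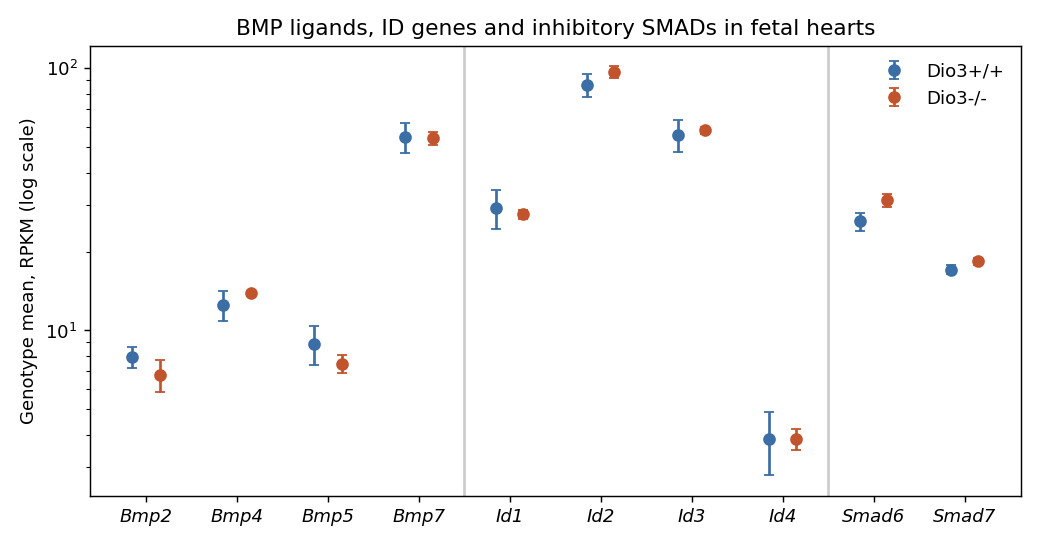
Mean expression of the 10 genes in *Dio3+/+* (blue) and *Dio3-/-* (orange) hearts in RPKM on a log axis, with bars of 1 SD calculated from the deposited CV (4 hearts per genotype). *Id2* is the highest and *Id4* the lowest in both genotypes, and the bars of the genotypes are apart for *Smad6* and *Smad7*.

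The ligands covered a range of levels, and none of the 4 passed the test. *Bmp7*, which the myocardium makes along with other tissues, was the highest, with a mean of 54.59 RPKM (CV 0.13) in *Dio3+/+* and 54.12 RPKM (CV 0.06) in *Dio3-/-* hearts. Its log2 difference was -0.01 (standard error 0.09, 95% confidence interval -0.21 to 0.19, adjusted *P* = 0.96 by limma). A second transcript row of *Bmp7* had lower means, 22.98 and 23.52 RPKM, and a log2 difference of 0.03 with the opposite sign. *Bmp7* was thus the ligand whose genotype means lay closest together.

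*Bmp4*, which is needed for outflow tract septation, had a mean of 12.47 RPKM (CV 0.13) in *Dio3+/+* and 13.86 RPKM (CV 0.02) in *Dio3-/-* hearts, a log2 difference of 0.15 (standard error 0.08, interval -0.04 to 0.33, adjusted *P* = 0.38 by limma). Its other row had 12.15 and 13.44 RPKM and a log2 difference of 0.14. *Bmp2*, a myocardial signal of the atrioventricular canal, had a lower mean in *Dio3-/-* hearts, 6.78 RPKM (CV 0.14) against 7.93 RPKM (CV 0.09). The log2 difference of *Bmp2* was -0.21 (standard error 0.10, interval -0.43 to 0.01, adjusted *P* = 0.29 by limma). The mean of *Bmp5*, a ligand that acts together with *Bmp7* in early heart development, was 8.89 RPKM (CV 0.17) in *Dio3+/+* and 7.46 RPKM (CV 0.08) in *Dio3-/-* hearts. Its log2 difference was -0.24 (standard error 0.11, interval -0.49 to 0.01, adjusted *P* = 0.28 by limma). So *Bmp4* was listed higher and *Bmp2* and *Bmp5* lower in *Dio3-/-* hearts, each by less than the test could call: given their spread, log2 differences of 0.38, 0.46 and 0.51 would have been needed. The summed level of the 4 ligands was 83.88 RPKM in *Dio3+/+* hearts and 82.22 RPKM in *Dio3-/-* hearts.

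The ID genes, the targets by which BMP activity is often read, were abundant except for *Id4*. *Id2* had a mean of 86.71 RPKM (CV 0.10) in *Dio3+/+* and 96.97 RPKM (CV 0.05) in *Dio3-/-* hearts, higher than 97.2% and 97.4% of all gene symbols. The log2 difference of *Id2* was 0.16 (standard error 0.07, interval -0.003 to 0.32, adjusted *P* = 0.28 by limma), the largest of the ID genes. *Id3* had 55.71 RPKM (CV 0.14) and 58.12 RPKM (CV 0.03), with a log2 difference of 0.06 (standard error 0.09, interval -0.14 to 0.26, adjusted *P* = 0.77 by limma). *Id1* and *Id3* overlap in function in the endocardium and epicardium, and *Id1* was listed slightly lower in *Dio3-/-* hearts, 27.74 RPKM (CV 0.04) against 29.26 RPKM (CV 0.17). Its log2 difference was -0.08 (standard error 0.10, interval -0.31 to 0.16, adjusted *P* = 0.75 by limma). *Id4*, best known from the nervous system, had 3.84 RPKM (CV 0.27) and 3.86 RPKM (CV 0.09), and its log2 difference of 0.01 had the widest interval of the 10 genes, -0.34 to 0.35 (adjusted *P* = 0.99 by limma). The makeup of the ID pool was close in the genotypes: *Id2* was 49.4% of the summed ID level in *Dio3+/+* and 51.9% in *Dio3-/-* hearts, *Id3* 31.7% and 31.1%, *Id1* 16.7% and 14.9%, and *Id4* 2.19% and 2.07%.

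*Smad6* was the member nearest to a call, followed in the main settings by *Smad7*, which lay close to *Id2*. *Smad6*, which preferentially blocks BMP receptors and is strong in endocardium and outflow tract, had a mean of 26.10 RPKM (CV 0.08) in *Dio3+/+* and 31.37 RPKM (CV 0.06) in *Dio3-/-* hearts, a ratio of the means of 1.20. The SDs of 2.09 and 1.88 RPKM left the genotypes apart by more than their sum. The log2 difference of *Smad6* was 0.26 (standard error 0.07, interval 0.11 to 0.41, unadjusted *P* = 0.0033, adjusted *P* = 0.075 by limma), and 0.31 would have been needed for a call. Over the 10 alternative settings its adjusted *P* value ran from 0.060 to 0.197. *Smad7*, which blocks both BMP and TGF-β receptors, had 17.05 RPKM (CV 0.04) and 18.40 RPKM (CV 0.03), a log2 difference of 0.11 (standard error 0.05, interval 0.002 to 0.21, adjusted *P* = 0.26 by limma). Its other rows had means of 16.02 and 17.54 RPKM and of 13.69 and 14.96 RPKM, with log2 differences of 0.13 and 0.12 and adjusted *P* values of 0.136 and 0.244 by limma. Rows of 1 gene share reads, so the 3 rows of *Smad7* are not independent of each other. With the median log2 ratio of all rows (0.04) subtracted, the log2 difference of *Smad7* was 0.07 (adjusted *P* = 0.54 by limma). In that setting *Bmp2*, *Bmp5* and *Id2* had lower adjusted *P* values than *Smad7*.

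**Figure D2:**
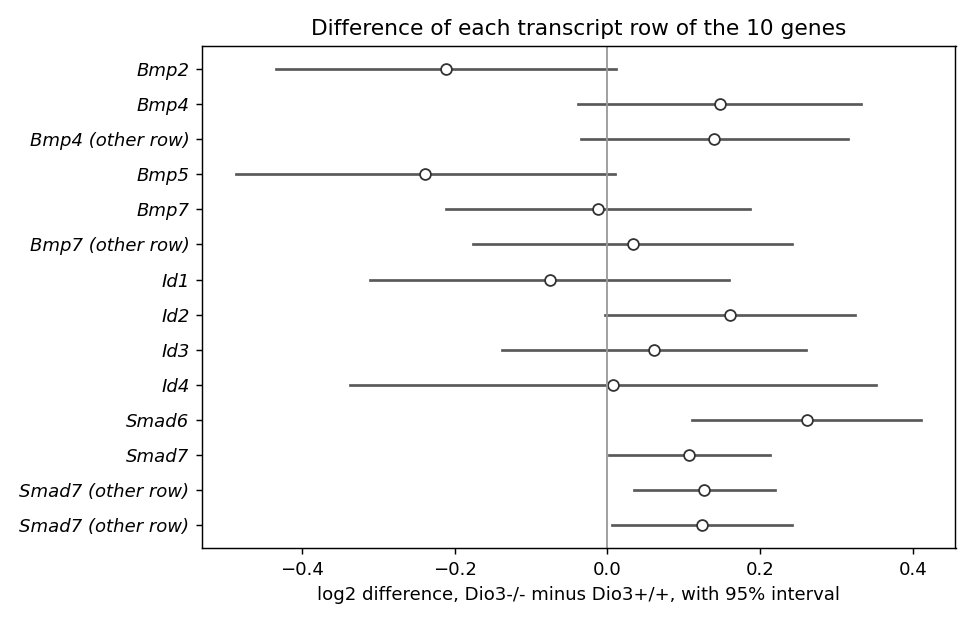
Log2 difference, *Dio3-/-* minus *Dio3+/+*, of all 14 transcript rows of the 10 genes with the 95% interval from limma, not adjusted for the number of rows. Open points did not pass the adjusted threshold; the interval of *Smad6* and those of the 3 *Smad7* rows lie above 0.

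To show the sequence that lies at these target genes, 6 of the 10 symbols were matched to RefSeq promoters (GRCm38.p6): *Bmp4*, *Bmp5*, *Id2*, *Id3*, *Id4* and *Smad6*. GGCGCC, a palindromic GC-rich box that BMP-activated SMADs can bind, was searched in the 250 bases before each start; it reads the same on both strands. Of the 32851 promoters in the table, 9.59% held it. It occurred once in *Id2*, at position -231, and once in *Id4*, at position -148, where -1 is the base before the start. The windows of *Id3*, *Smad6*, *Bmp4* and *Bmp5* do not hold these letters. Those of *Id2* (chr12:25096093-25096342, minus strand) and *Id4* (chr13:48260866-48261115, plus strand), the ID genes of highest and lowest level, and that of *Smad6* (chr9:64022060-64022309, minus strand), the gene with the largest difference, are printed 5′ to 3′ with the box in capitals.
Id2: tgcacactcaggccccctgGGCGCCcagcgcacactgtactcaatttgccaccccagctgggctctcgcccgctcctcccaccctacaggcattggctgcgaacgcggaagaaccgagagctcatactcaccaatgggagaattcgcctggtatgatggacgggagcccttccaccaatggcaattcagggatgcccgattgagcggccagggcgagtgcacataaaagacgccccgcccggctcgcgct
Id4: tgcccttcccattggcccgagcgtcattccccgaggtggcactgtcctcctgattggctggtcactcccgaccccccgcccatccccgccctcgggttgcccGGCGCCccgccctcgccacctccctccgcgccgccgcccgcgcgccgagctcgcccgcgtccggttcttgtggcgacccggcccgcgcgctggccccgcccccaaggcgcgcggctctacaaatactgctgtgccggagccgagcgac
Smad6: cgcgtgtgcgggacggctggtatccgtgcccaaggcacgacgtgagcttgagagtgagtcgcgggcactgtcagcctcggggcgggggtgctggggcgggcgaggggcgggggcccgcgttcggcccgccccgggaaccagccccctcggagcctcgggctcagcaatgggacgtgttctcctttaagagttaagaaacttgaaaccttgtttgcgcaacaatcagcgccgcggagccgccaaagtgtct
A match is a run of letters and no sign that a SMAD was bound. *Id2* and *Id4*, which share the box, stood at opposite ends of the levels. A link between the box and the level of a gene was not tested.

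The order of the 10 genes by level was nearly the same in both genotypes. In *Dio3+/+* hearts *Id2* was followed by *Id3*, *Bmp7*, *Id1*, *Smad6*, *Smad7*, *Bmp4*, *Bmp5*, *Bmp2* and *Id4*. In *Dio3-/-* hearts *Smad6* stood above *Id1* and the other places were the same. Neighbors closer together than the sum of their SDs were *Id3* and *Bmp7*, *Id1* and *Smad6*, and *Bmp5* and *Bmp2* in *Dio3+/+* hearts, and the first and the last of these pairs in *Dio3-/-* hearts. *Smad6* exceeded *Id1* in *Dio3-/-* hearts by 3.63 RPKM, against a summed SD of 2.99 RPKM.

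The spread between hearts of 1 genotype was modest for all 10 genes. Their CVs ran from 0.04 to 0.27 in *Dio3+/+* hearts and from 0.02 to 0.14 in *Dio3-/-* hearts, with medians of 0.13 and 0.055, beside medians of 0.09 and 0.06 over all symbols tested. In 9 of the 10, all but *Bmp2*, the CV was larger in *Dio3+/+* hearts, as it was for 65.4% of all symbols. The CVs were 0.27 and 0.09 for *Id4*, 0.17 and 0.04 for *Id1*, and 0.13 and 0.02 for *Bmp4*.

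**Figure D3:**
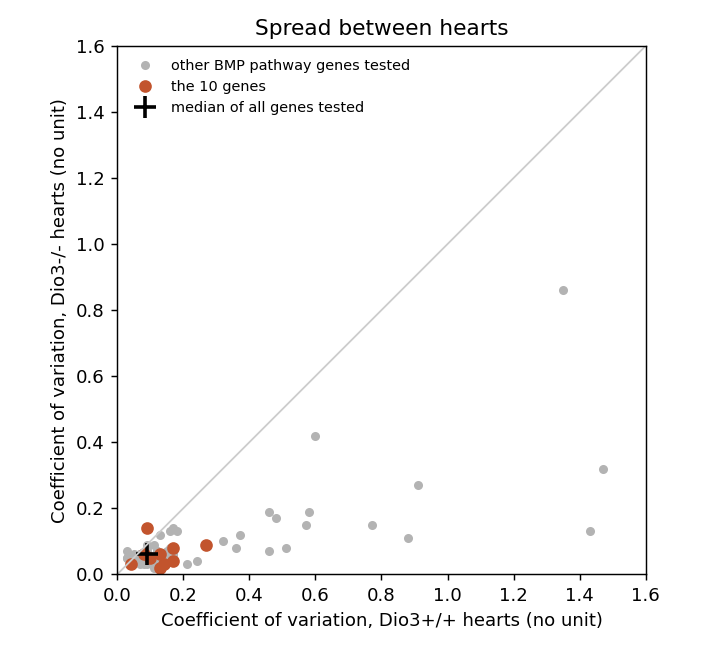
CV in *Dio3+/+* (horizontal) against *Dio3-/-* hearts (vertical) for the 10 genes (orange), the 62 other BMP pathway genes tested (gray) and the median of all genes tested (cross); the line marks equal CVs. The 10 genes lie at or below 0.27 on both axes, and 10 of the 62 other pathway genes lie above 0.5 in *Dio3+/+* hearts.

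The rest of the pathway was read from lists of 78 other genes, of which 62 were tested by their highest row. Of these, 3 rose in *Dio3-/-* hearts and 0 fell, beside the shares of 1.91% and 0.382% over all symbols. The lists were chosen with earlier results of these data known, so these counts are no test of the pathway against all symbols. Of the 62, 31 had a positive and 31 a negative log2 difference, where 63.3% of all symbols had a positive one. All 10 pathway genes tested with a CV above 0.5 in *Dio3+/+* hearts were among the negative ones, so the even split rests in part on these noisy rows. At an unadjusted *P* value under 0.05 the counts were 12 and 3, beside 19.7% of all symbols in either direction. That share was not split by direction. The 3 genes that rose do different work: 1 is a receptor, 1 a processing enzyme and 1 a secreted protease.

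Among receptors, *Bmpr1a*, the type I BMP receptor of the myocardium and cushions, rose from 53.97 RPKM (CV 0.08) to 72.53 RPKM (CV 0.03). Its log2 difference was 0.42 (standard error 0.06, interval 0.29 to 0.56, adjusted *P* = 0.0088 by limma), and its other row gave 0.47. It was the only 1 of 11 receptors and co-receptors tested that passed. The co-receptor *Eng*, an endothelial protein, had the highest level of the list, 70.58 and 83.33 RPKM, and a log2 difference of 0.24 (adjusted *P* = 0.108 by limma). The type II receptor *Bmpr2* had a log2 difference of 0.09 and the type I receptor *Acvr1* of -0.01.

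Among enzymes, *Furin*, the convertase that cleaves BMP precursors and many other proproteins, rose from 46.50 RPKM (CV 0.03) to 77.81 RPKM (CV 0.07), a log2 difference of 0.74 (standard error 0.06, interval 0.61 to 0.86, adjusted *P* = 0.00029 by limma). The other 4 of 5 processing enzymes did not pass and had negative log2 differences, including -0.12 for *Bmp1*, a protease that cleaves the antagonist chordin and procollagens, -0.08 for *Pcsk5* and -0.25 for *Pcsk6*. *Htra1*, a secreted serine protease known to dampen TGF-β family signaling, rose from 22.83 RPKM (CV 0.03) to 48.13 RPKM (CV 0.05). This log2 difference of 1.06 (standard error 0.05, interval 0.95 to 1.17, adjusted *P* = 5.7e-06 by limma) was the highest among the pathway genes tested. Under the unequal-variance test *Htra1* still passed, with an adjusted *P* of 0.0060, while *Furin* (0.060) and *Bmpr1a* (0.137) did not.

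The other ligands, signal carriers and target genes gave no call. Of the 4 other ligands tested, *Bmp10*, a ligand of trabecular myocardium, had means of 30.56 RPKM (CV 0.15) and 27.10 RPKM (CV 0.07) and a log2 difference of -0.17 (adjusted *P* = 0.41 by limma). *Bmp6* had 5.07 RPKM (CV 0.07) and 6.35 RPKM (CV 0.06), a log2 difference of 0.30 with an adjusted *P* of 0.057 by limma, which passed in 2 of 10 alternative settings. *Gdf6* had a log2 difference of 0.19 (adjusted *P* = 0.173 by limma). The log2 differences of the signal carriers were -0.12 for *Smad1*, -0.09 for *Smad5*, 0.27 for *Smad9* (adjusted *P* = 0.104 by limma) and 0.04 for *Smad4*. The E proteins that ID proteins capture, *Tcf3*, *Tcf4* and *Tcf12*, had -0.15, -0.08 and -0.07. Of the intracellular inhibitors, the corepressor *Ski* had -0.10, the SMAD phosphatase gene *Ppm1a* 0.11, *Tob1* 0.08 and the ubiquitin ligase gene *Smurf2* 0.01. *Fstl1* and *Twsg1*, the most abundant of the secreted modulators, had -0.10 and 0.04, and *Fstl3*, a binder of activins, had 0.11. Among 16 other genes known to respond to BMP, 0 passed: *Tbx20* had a log2 difference of 0.34 (adjusted *P* = 0.125 by limma), *Gata4* 0.16, *Nkx2-5* 0.11 and *Sox9* -0.36 (interval -0.96 to 0.23).

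**Figure D4:**
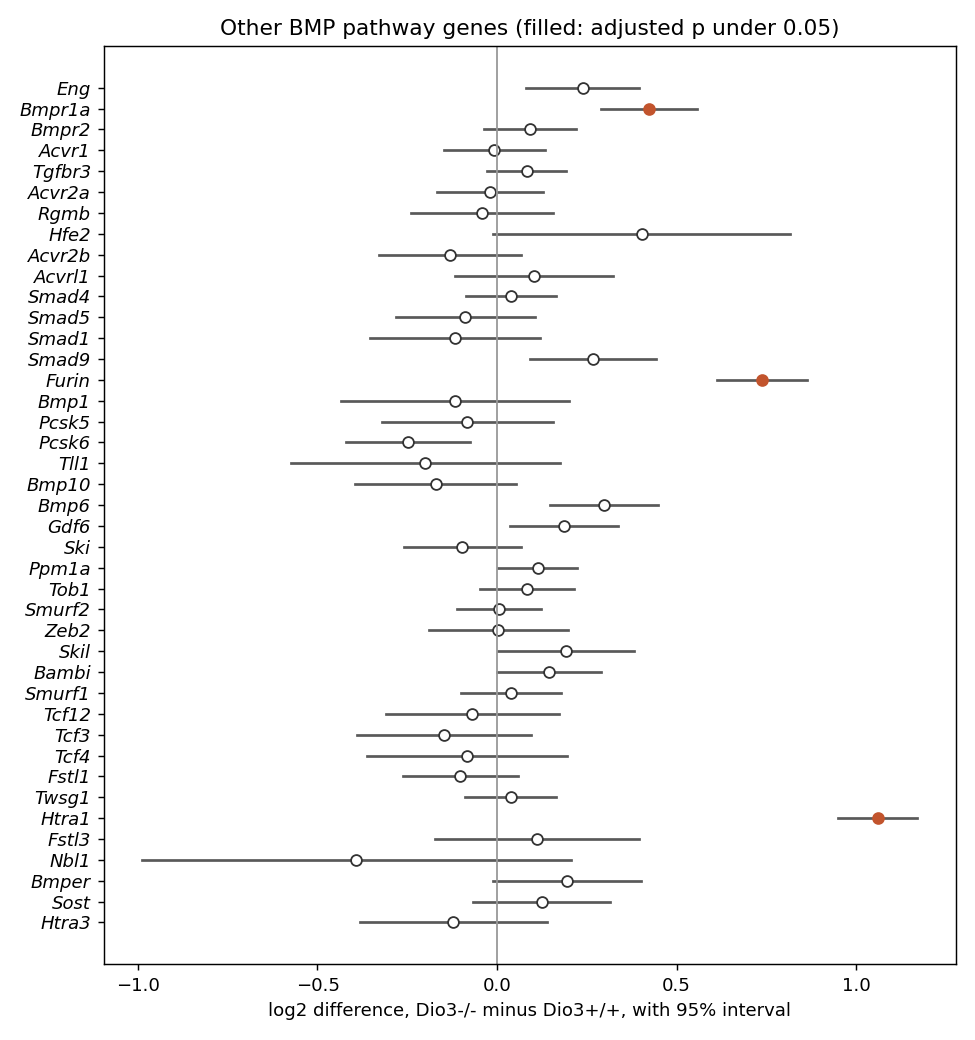
Log2 difference, *Dio3-/-* minus *Dio3+/+*, with 95% interval from limma for the 41 BMP pathway genes tested in the lists of ligands, receptors, signal carriers, enzymes, inhibitors, E proteins and secreted modulators whose CV did not exceed 0.5. Filled points (*Bmpr1a*, *Furin* and *Htra1*) passed the adjusted threshold.

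A group of the other pathway genes varied widely among *Dio3+/+* hearts. A CV above 0.5 in *Dio3+/+* hearts was found for 10 of the 62 pathway genes tested (16.1%), for 0 of the 10 members and for 2.65% of all symbols tested. The 10 pathway genes included the antagonists *Grem1*, with 1.38 RPKM (CV 1.47) in *Dio3+/+* and 0.09 RPKM (CV 0.32) in *Dio3-/-* hearts, *Fst*, with 4.00 RPKM (CV 0.57) and 2.34 RPKM (CV 0.15), and *Nog*, with 1.79 RPKM (CV 0.58) and 1.28 RPKM (CV 0.19). Among transcription factors, *Runx2*, the regulator of bone formation, had 1.72 RPKM (CV 1.43) and 0.23 RPKM (CV 0.13), and *Tbx3* had 10.61 RPKM (CV 0.77) and 7.53 RPKM (CV 0.15). The ligand *Gdf10* had 7.85 RPKM (CV 1.35) and 3.33 RPKM (CV 0.86). None of these 6 passed the test.

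Summed marker levels of bone and cartilage, skeletal muscle, liver and red cells differed between the genotype means, although few of these markers passed the test. The summed level of 8 bone and cartilage markers was 32.6 RPKM in *Dio3+/+* hearts and 11.2 RPKM in *Dio3-/-* hearts, with 1 of 4 tested lower by the test, and that of 5 skeletal muscle markers was 29.1 and 2.42 RPKM, with 0 of 3. Over the markers tested, the median CVs in *Dio3+/+* hearts were 1.20 and 1.61. The bone marker called, *Ibsp*, had 11.25 RPKM (CV 1.54) in *Dio3+/+* and 0.03 RPKM (CV 0.59) in *Dio3-/-* hearts. At so large a CV the fit from summaries is least exact. The sum of 11 liver markers was 24.3 and 128 RPKM (0 of 11 passed, median CV 1.05 in *Dio3-/-* hearts). For 7 red cell markers it was 47117 and 16296 RPKM (1 of 7 lower by the test). The log2 differences of all 7 red cell markers were negative and those of all 11 liver markers positive. Of 6 lung and foregut markers, with sums of 9.88 and 10.8 RPKM, 1 was tested, *Nkx2-1*, which had most of the sum (8.18 and 8.35 RPKM). The others were below 1 RPKM in both genotypes, and only *Sftpc* was listed at 0, in *Dio3+/+* hearts. The part of these tissues in the values of the 10 genes was not tested. Markers of the heart's own cell types were present in both genotypes. Summed levels were 11950 and 13916 RPKM for 8 cardiomyocyte markers (1 of 8 higher by the test). They were 283 and 302 RPKM for 8 endothelial and endocardial markers, and 112 and 121 RPKM for 6 epicardial markers. For 8 markers of cushion mesenchyme and fibroblasts they were 745 and 653 RPKM, with median CVs of 0.405 and 0.06. For 4 smooth muscle markers they were 664 and 780 RPKM, with 0 called in the last 4 lists. Most of the smooth muscle sum was *Acta2* (512.9 and 625.44 RPKM), and *Myh11* (0.46 and 0.77 RPKM) was below the limit for testing.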

How the data were processed

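Total RNA from 8 fetal hearts was depleted of ribosomal RNA and sequenced in the study. The authors aligned the reads with NovoAlign (version 2.08), kept unique alignments and scaled each library to the smallest one; the genome build is not given in the sources used here. Per the methods, the deposited genotype means are read as RPKM, although the table names no unit. The deposited CVs are a ratio of SD to mean, rounded like the means to 2 decimals. The deposited fold changes and q values were not used. The table holds no value for a single heart, so the depth of each heart and its precision are unknown. The Methods of the study give a range of aligned reads per sample and an average of mapped reads that lies below it, but no value for a single heart.

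For each row, the mean of each genotype was put on the log2(RPKM + 0.5) scale, and its SD was taken as CV × mean / ((mean + 0.5) × ln 2). Pooled variances (6 residual degrees of freedom) were moderated by limma 3.58.1 (R 4.3.3) with a mean-variance trend. Rows above 1 RPKM in at least 1 genotype were tested, without a block or covariates, and *P* values were adjusted over all of them by the Benjamini-Hochberg method. The log of a mean stands for the mean of logs, which is least exact at large CVs. *P* values measure only the spread between these hearts. The fit was checked on simulated data. The difference needed for a call is the one that reaches the largest *P* value called (0.00107). All members were named, and from the other lists the called genes and up to 4 of the most abundant per role. *Grem1*, *Fst*, *Nog*, *Runx2* and *Tbx3*, named for their spread, were chosen after their values were seen. Members and lists were chosen with earlier results of these data known. Alternatives covered the pseudocount, filter, trend, test, rows per gene, centering, rounding and noisy rows.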

Additional observations from a re-analysis of the deposited data

How the results depend on the processing

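None of the 10 genes passed the adjusted threshold in the 10 alternative settings. With 1 row per gene symbol, *P* values are adjusted over fewer tests. *Id4* changed sign to -0.031 once the median log2 ratio of all rows (0.04) was subtracted, and *Bmp7* to 0.033 in its second transcript row. The intervals of both genes include 0, so neither has a direction here. *Id4* could not be tested with a mean over both genotypes above 5 RPKM. The pathway genes called numbered 3, 1 with the unequal-variance test, and 4, with *Bmp6* added, both with a mean above 5 RPKM and without rows of a CV above 0.5. Over all rows the count was 703, of which 616 were higher in *Dio3-/-* hearts. It was 431 without an expression filter, 69 with the unequal-variance test, 319 with 1 row per gene symbol, 394 after centering (314 higher) and 414 with each CV raised by its largest rounding error (0.005), but 811 with a mean above 5 RPKM and 1052 without rows of a CV above 0.5. No paired analysis was possible because the table holds 1 mean and 1 CV per genotype and no value for a single heart, and for the same reason no heart could be left out in turn.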
